A study of Mus musculus with 46 samples.

Results

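Some mRNAs carry short reading frames ahead of their coding sequence, and 8 mouse mRNAs of this kind that belong to the response of cells to stress were followed here: Atf4, Atf5, Ddit3, Ppp1r15a, Ppp1r15b, Ibtk, Ifrd1 and Slc35a4. They were selected by symbol from a list written with earlier results of these data known, in which the footprint gain of Ibtk in Ctu1 knockout cells with DMSO had been seen. That gain, and the gain of Ibtk in footprints per transcript in the same cultures, are therefore described without a test. All 8 symbols stood in every table, out of 9857 symbols that stood on 1 entry in the DMSO tables and in the torin 1 tables. Ribosome footprints and poly(A) RNA had been sequenced from EPP2 cells, a murine pancreatic cancer line, which gave 23 footprint libraries and 23 transcript libraries. The control cultures (genotype WT in the labels) received DMSO or 300 nM torin 1, an inhibitor of the mTOR kinase, for 2 h, with 6 libraries of each assay per treatment. The Ctu1KO cultures received the same, with 5 libraries of each assay for DMSO and 6 for torin 1. Ctu1 encodes a subunit of the enzyme that thiolates the wobble uridine of some tRNAs, and its knockout had been induced with 300 ng/ml doxycycline 4 days before the experiment through inducible Cas9 and a pair of guide RNAs. The cells with inducible Cas9 came from a single clone, so the values describe that clone. Which guide RNAs the control libraries carried, and whether they received doxycycline, was not stated for these libraries, so doxycycline and the knockout cannot be told apart.

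When the initiation factor eIF2 is phosphorylated by one of its stress kinases, the complex that brings the initiator tRNA becomes scarce and most mRNAs are translated less. Upstream reading frames that normally catch or turn away the scanning ribosome are then bypassed more often, so that a few mRNAs keep or gain translation. ATF4, ATF5 and CHOP (encoded by Ddit3) are the transcription factors of this response, and PPP1R15A and PPP1R15B are the subunits that direct protein phosphatase 1 to eIF2. IBTK is an adaptor of a cullin ubiquitin ligase, IFRD1 is a transcriptional co-regulator, and SLC35A4 is a transporter-family protein whose mRNA also encodes a microprotein in its leader.

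All 8 mRNAs had at least 1 ATG ahead of the coding start in the principal GENCODE M21 transcript (build GRCm38), which held for 48.6% of 10154 listed genes with a matched transcript. Atf4 and Atf5 were the 2 members with an upstream frame that ran across the coding start, an arrangement found in 15.4% of the genes. Their last upstream frames had 59 and 58 codons. Ahead of it, Atf4 had frames of 36 and 3 codons and Atf5 had 1 of 3 codons. Ddit3 had 2 upstream ATG in 1 frame (34 and 31 codons), Ppp1r15a had 3 (45, 34 and 26 codons), Ppp1r15b had 3 (2, 8 and 51 codons), Ifrd1 had 1 (52 codons) and Ibtk had 4 (19, 3, 7 and 10 codons), all of which ended before the coding start. Slc35a4 had the most, with 12, the first of them 103 codons long. The windows below show the upstream starts of the members whose footprints changed, because these are the starts a scanning ribosome meets first. Each runs 5′ to 3′ on the mRNA, from 10 bases before the ATG to 7 after it, and the capitals mark the ATG. The windows lie in 5′ UTR exons, those of Atf4 and Ddit3 on the plus strand and those of Atf5, Ibtk and Ifrd1 on the minus strand.
Atf4 start 1, chr15:80255293-80255312: cttttctctcATGgggcctt
Atf4 start 2, chr15:80255572-80255591: tgcggccaccATGgcgtatt
Atf4 start 3, spliced from chr15:80255671-80256211: ggcctaagccATGgcgctct
Atf5 start 1, chr7:44816528-44816547: cgcccgcgcaATGgctctgt
Atf5 start 2, spliced from chr7:44815278-44816416: tttcgccgccATGgagtcct
Ddit3 start 1, chr10:127290819-127290838: cgattatatcATGttgaaga
Ddit3 start 2, chr10:127290828-127290847: catgttgaagATGagcgggt
Ibtk start 1, chr9:85749187-85749206: ttcactaaggATGagtccct
Ibtk start 2, chr9:85744035-85744054: cctcgcaattATGgctattt
Ibtk start 3, chr9:85743930-85743949: tattttttaaATGaagaact
Ibtk start 4, chr9:85743910-85743929: tgtatttgatATGaacttta
Ifrd1 start 1, chr12:40223149-40223168: agagagaaacATGtatcgtt
Starts 2 and 3 of Atf4 and both starts of Atf5 had a purine 3 bases before the ATG and a G right after it, the pattern at which initiation is most efficient. Of the 4 starts of Ibtk, only start 2 had both. The files hold counts per gene over all its exons, so footprints on an upstream frame and on the coding sequence cannot be told apart in any value below.

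Footprint libraries held 4602092 to 52907878 counts and transcript libraries 129881946 to 325494304. Values are CPM, the count scaled to a common library total over the 9857 shared symbols. In 6 of the 11 transcript libraries of replicates 4 to 6, the profile was most like a group other than the one on the label, against 0 of 11 for footprints, so transcripts are given for replicates 1 to 3 and the values with all replicates as labelled stand beside them. Ctu1 itself had 4.55 to 4.77 transcript CPM in control and 4.38 to 4.97 in Ctu1KO (replicates 1 to 3, DMSO, log2 change 0.02 ± 0.11 SE, adjusted p = 0.926), and its footprint change was -0.54 ± 0.29 (adjusted p = 0.353). Neither change passed an adjusted p of 0.05, and Ctu1 was listed in the DMSO tables only. Of 7 epithelial markers, 5 were listed, with Krt8 at 128 to 151 CPM and Epcam at 0.987 to 1.19, while Krt7 and Cdh1 were not listed. All 3 mesenchymal markers were listed, with Vim at 2.38e+03 to 2.64e+03 CPM, above every listed epithelial marker, Cdh2 at 54.9 to 67.2 and Zeb1 at 30.5 to 32.1. Of the other markers, 1 of 3 immune (Cd68, 1.55 to 1.82 CPM), 0 of 5 acinar and 0 of 2 endothelial ones were listed. These marker values are transcripts in control with DMSO, replicates 1 to 3. In bulk counts, fewer cells of a type and less RNA per cell cannot be told apart. The labels do not say how the replicates of a group were obtained. The study calls its footprint libraries independent experiments in its legends, while its methods give a smaller number of repeats than there are libraries. The p-values below therefore measure the spread between these libraries, part of which may be technical.

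In control cells with DMSO the 8 mRNAs each had a lower ratio of footprint to transcript CPM than the median gene. Over 9644 genes, the median log2 ratio of footprint to transcript CPM was -0.42 in control cells with DMSO (replicates 1 to 3). The ratio was -2.59 ± 0.35 for Ppp1r15a and -2.50 ± 0.23 for Ibtk (SD, n = 3), below which only 1.82% and 2.18% of genes lay. Slc35a4 followed with -1.81 ± 0.05, Ppp1r15b with -1.45 ± 0.12, Atf4 with -1.34 ± 0.20 and Ddit3 with -1.20 ± 0.65, and the spread of Ddit3 covers that of its neighbours. Atf5 (-0.77 ± 0.25) and Ifrd1 (-0.71 ± 0.17) came closest to the median gene and did not differ from each other beyond their spread. The ratio was not corrected for the share of an mRNA that is coding, so the place of a member against the median gene could differ per kilobase. Per kilobase of coding sequence, footprints ranged from 2.42 ± 0.316 CPM for Ibtk to 105 ± 15.2 for Ifrd1 (SD, n = 6), around a median gene of 15.6. Ppp1r15a (2.69 ± 1.32) lay next to Ibtk and was not distinguishable from it, whereas Atf4 had 88.8 ± 10.7 and Slc35a4 76.7 ± 7.

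**Figure D1:**
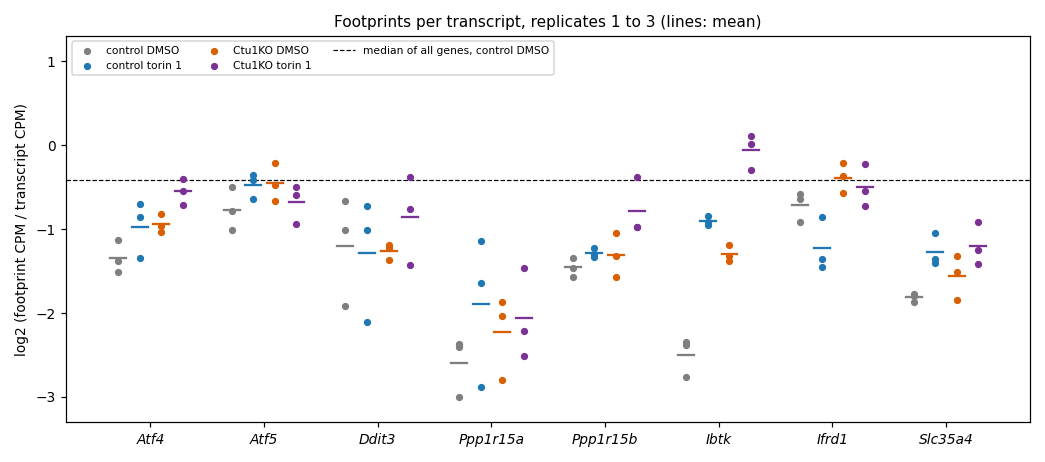
Log2 ratio of footprint to transcript CPM for the 8 mRNAs, with a point for each of replicates 1 to 3 and a line at the mean of each group. Ibtk rose from -2.50 in control cells with DMSO to -0.06 in Ctu1KO with torin 1, and the 12 points of Ppp1r15a all lay below the dashed median of all genes in control with DMSO (-0.42).

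Ibtk footprints rose in cells whose Ibtk transcripts changed little. In control cells with DMSO its footprints had a lowest value of 8.0, a median of 9.91 and a highest of 11.6 CPM (n = 6). With torin 1, control cells had 21.7, 27.9 and 31.3 CPM on the same scale, and Ctu1KO replicates 1 to 5 with DMSO had 27, 23.9, 23.9, 29.2 and 31.3 CPM. The last 2 groups lay in the same range, above every control library with DMSO. In Ctu1KO with torin 1 they reached 40.5, 47.8 and 57.5 CPM (lowest, median and highest, n = 6), above every library of the other groups. Its transcripts stayed between 45.2 and 62.4 CPM in all 12 libraries of replicates 1 to 3. The log2 ratio of footprints to transcripts was -2.50 ± 0.23 in control with DMSO, -0.90 ± 0.06 in control with torin 1, -1.30 ± 0.10 in Ctu1KO with DMSO and -0.06 ± 0.22 in Ctu1KO with torin 1 (SD, n = 3 each). The groups did not overlap in this ratio.

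**Figure D2:**
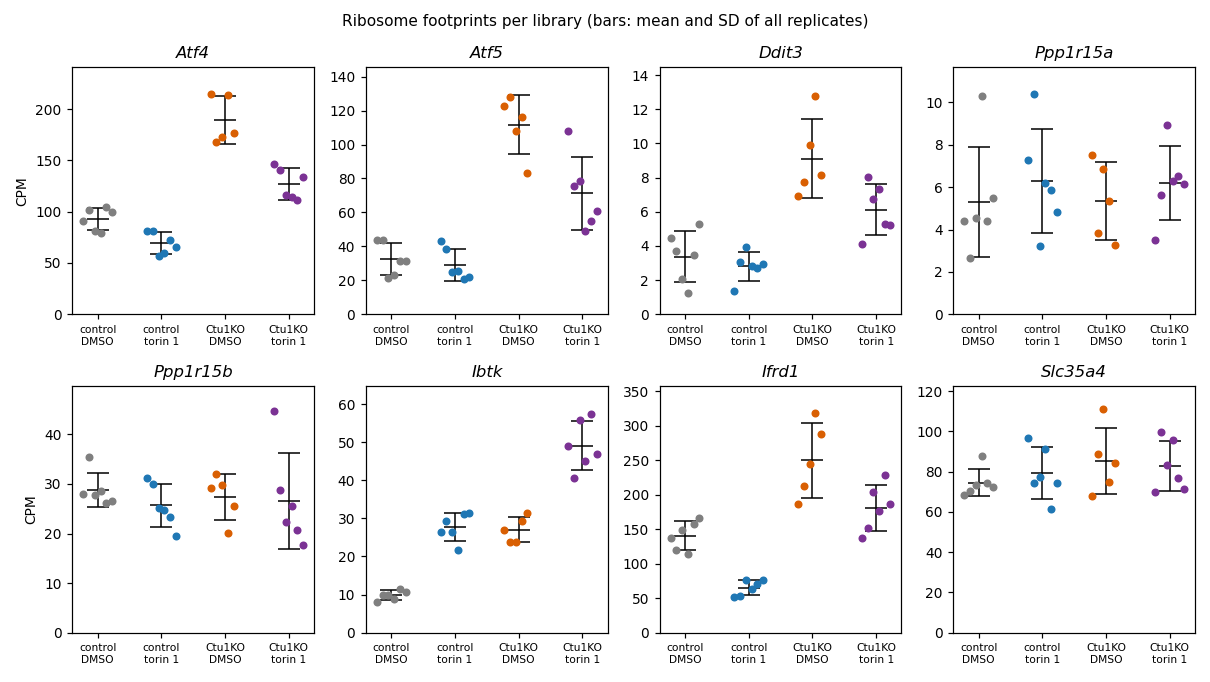
Footprint CPM of each mRNA in each library (points), with the mean and SD of each group (n = 6, and 5 for Ctu1KO with DMSO). Ibtk was lowest in control with DMSO (8.0 to 11.6 CPM) and highest in Ctu1KO with torin 1 (40.5 to 57.5), while Ifrd1 was lowest in control with torin 1 (51.4 to 76.9).

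With DMSO, footprints of the 3 transcription factors and of Ifrd1 were higher in Ctu1KO than in control. Beside Ibtk, 4 of the other 7 members were called at an adjusted p under 0.05 (edgeR), all higher, where 2.66% of the 10397 genes tested were called in either direction. Atf5 footprints had a lowest value of 21.6, a median of 31.3 and a highest of 43.9 CPM in control, against 123, 128, 108, 116 and 83.5 CPM in Ctu1KO replicates 1 to 5. The groups did not overlap, and the log2 change was 1.74 ± 0.19 (SE, 3.35-fold, adjusted p = 0.000396). Atf4, the master regulator of amino acid and redox genes under stress, had 79.0, 95.2 and 105 CPM in control (lowest, median and highest) and 215, 168, 173, 214 and 177 CPM in Ctu1KO. Its groups stood apart as well (log2 change 0.99 ± 0.10, 1.98-fold, adjusted p = 0.00027). Ddit3 was low in both groups, at 1.27 to 5.26 CPM in control (28 to 182 counts) and 6.95 to 12.8 CPM in Ctu1KO. Its log2 change of 1.41 ± 0.30 (adjusted p = 0.0256) lost the call without control replicate 3 or 5 or Ctu1KO replicate 3 or 4, with adjusted p between 0.0556 and 0.068. Ifrd1 rose from 114 to 166 CPM in control to 186 to 318 CPM in Ctu1KO, without overlap (log2 change 0.79 ± 0.13, adjusted p = 0.00817). Ibtk had a log2 change of 1.42 ± 0.12 (2.68-fold), given as a description. The phosphatase subunits and Slc35a4 did not pass, with log2 changes of -0.04 ± 0.33 for Ppp1r15a, -0.11 ± 0.13 for Ppp1r15b and 0.15 ± 0.13 for Slc35a4, and their groups overlapped.

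The transcripts of the same 4 members rose with them in DMSO, and 5.12% of 10119 genes were called. Ddit3 transcripts were 7.08, 7.52 and 7.73 CPM in control replicates 1 to 3 and 18, 18.2 and 22.6 in Ctu1KO (log2 change 1.41 ± 0.12, adjusted p = 0.00602). For Atf5 they were 75.6, 61.9 and 43.4 against 171, 148 and 171 CPM (1.46 ± 0.18, adjusted p = 0.0124), and for Atf4 235, 224 and 231 against 379, 344 and 338 CPM (0.64 ± 0.07, adjusted p = 0.00789). In all 3 genes every Ctu1KO library lay above every control library, and the same held for Ifrd1, Ibtk and Ppp1r15a. How many of all genes separate in this way with 3 libraries in each group was not counted. Ifrd1 transcripts changed least of the 4, by 0.35 ± 0.06 (adjusted p = 0.0293). Ibtk (0.25 ± 0.06, adjusted p = 0.0558) and Ppp1r15a (0.29 ± 0.08, adjusted p = 0.0791) fell short, and with the replicate number as a term both were called (adjusted p = 0.0105 and 0.0106), when 28% of all genes were. With all replicates as labelled, Atf5 (1.60 ± 0.15) and Ddit3 (1.18 ± 0.13) kept their calls, while Atf4 (0.37 ± 0.13, adjusted p = 0.0578) and Ifrd1 (0.20 ± 0.07, adjusted p = 0.0557) did not and Ibtk passed (adjusted p = 0.0244). Leaving out control replicate 2 alone left no call among the 4, with adjusted p of 0.0621 for Atf4, 0.0694 for Atf5, 0.0514 for Ddit3 and 0.143 for Ifrd1. Atf5 was also lost without Ctu1KO replicate 1 (adjusted p = 0.0542), and Ifrd1 without control replicate 1 or 3 or Ctu1KO replicate 1 or 2 (adjusted p from 0.0579 to 0.0926).

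**Figure D3:**
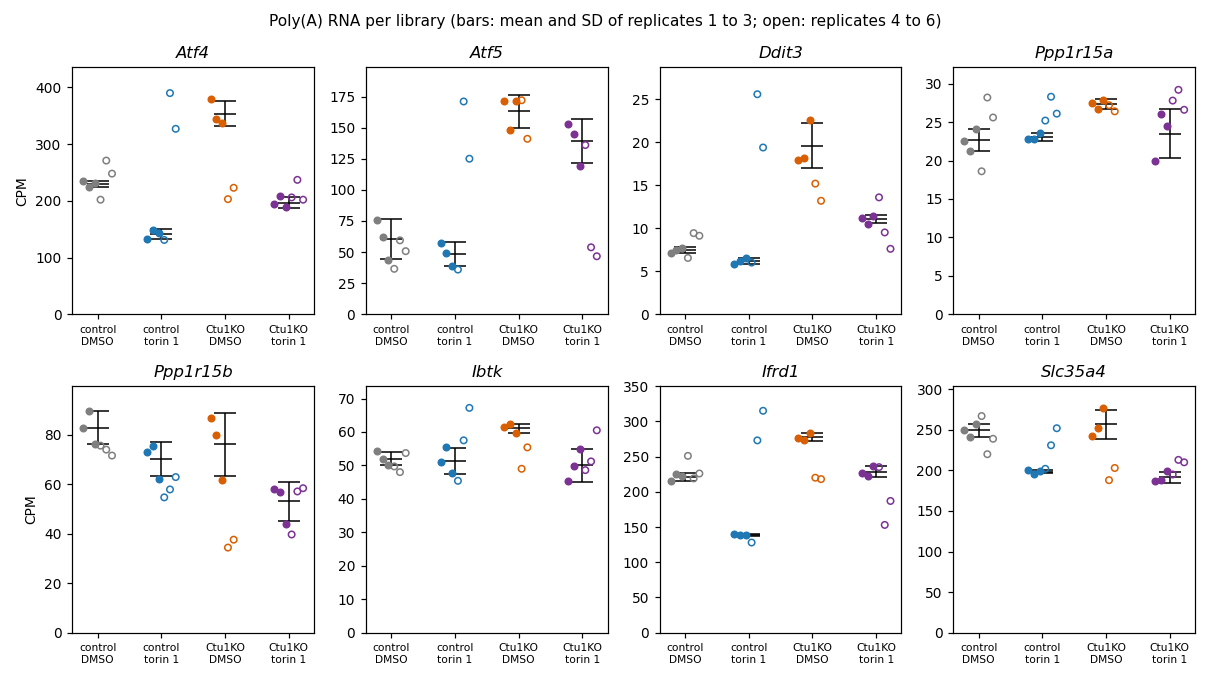
Transcript CPM of each mRNA in each library, with filled points for replicates 1 to 3 (mean and SD drawn) and open points for replicates 4 to 6. The 2 open points at 390 and 327 CPM of Atf4 are replicates 5 and 6 labelled control torin 1, whose filled counterparts lay at 132 to 148 CPM.

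Under torin 1 the same 5 mRNAs carried more footprints in Ctu1KO than in control, in a comparison that shares no library with that in DMSO. In this comparison 5 of 8 members were called, all higher, with 4.83% of 9913 genes called. Ifrd1 had the largest change, from 51.4, 67.4 and 76.9 CPM in control (lowest, median and highest) to 137, 182 and 228 CPM in Ctu1KO (log2 change 1.42 ± 0.14, 2.67-fold, adjusted p = 4.74e-05). Atf5 rose from 20.5, 25.1 and 43.3 CPM to 49.1, 68.2 and 108 CPM (1.25 ± 0.23, adjusted p = 0.00456). For Atf4 the values were 57.0, 69.3 and 81.5 CPM in control and 111, 125 and 147 CPM in Ctu1KO (0.83 ± 0.12, adjusted p = 0.000839). The groups did not overlap in any of these. Ibtk rose by 0.78 ± 0.12 (1.72-fold, adjusted p = 0.00172) and Ddit3 by 1.09 ± 0.27 (adjusted p = 0.0324), also without overlap. Ppp1r15a (-0.06 ± 0.28), Ppp1r15b (0.00 ± 0.19) and Slc35a4 (0.02 ± 0.13) overlapped between the groups. Once the replicate number was a term, the same 5 members were called among 14.4% of genes.

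Of these 5, Ibtk was the one whose transcript change was not called under torin 1. Its transcripts were 51.0, 55.5 and 47.6 CPM in control and 45.2, 49.9 and 55.0 CPM in Ctu1KO (log2 change 0.01 ± 0.10, adjusted p = 0.963). The other 4 were called, with 1.31% of 9650 genes: Atf5 by 1.57 ± 0.16 (adjusted p = 0.0194), Ddit3 by 0.88 ± 0.10 (adjusted p = 0.0237), Ifrd1 by 0.77 ± 0.07 (adjusted p = 0.0194) and Atf4 by 0.52 ± 0.09 (adjusted p = 0.0471). Leaving out any 1 of control replicates 1 to 3 or Ctu1KO replicate 1 or 2 ended at least 2 of them, with adjusted p from 0.0685 to 0.26, and with all replicates as labelled the log2 changes were 0.52 ± 0.41 for Atf5, -0.07 ± 0.36 for Ddit3, 0.21 ± 0.22 for Ifrd1 and 0.00 ± 0.25 for Atf4, none called. Scaling by library totals alone ended the call of Atf4 (0.48 ± 0.09, adjusted p = 0.0561). With the replicate number as a term, 5 members were called among 32.8% of genes, Ppp1r15b being the added one, lower by -0.36 ± 0.06 (adjusted p = 0.00362).

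Torin 1 in control cells moved the members apart. Ibtk footprints rose 2.65-fold (log2 change 1.41 ± 0.12, adjusted p = 1.52e-06), more than in 99.6% of the genes tested. Ifrd1 fell by 1.19 on the log2 scale (SE 0.12, 0.439-fold, adjusted p = 1.12e-05), from 114, 144 and 166 CPM to 51.4, 67.4 and 76.9 CPM (lowest, median and highest). The groups did not overlap for either gene. Atf4 fell less, by 0.51 (SE 0.11, adjusted p = 0.00932), and its highest torin 1 value of 81.5 CPM lay above its lowest DMSO value of 79.0. These 3 of 8 members were called, with 7.24% of 9856 genes called, or 20.5% with the replicate number as a term, which called the same count of members. Atf5 (-0.26 ± 0.22), Ddit3 (-0.34 ± 0.33), Ppp1r15b (-0.25 ± 0.13), Ppp1r15a (0.15 ± 0.32) and Slc35a4 (-0.01 ± 0.12) did not pass. This comparison uses the same control DMSO libraries as the comparison in which Ibtk was first seen, so its low value there enters both. The adjusted p and the rank of Ibtk given here do not allow for that choice.

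The transcripts of Atf4 and Ifrd1 fell with torin 1 in control cells, and those of Ibtk showed no detectable change. Atf4 went from 235, 224 and 231 CPM to 132, 148 and 144 CPM in replicates 1 to 3 (log2 change -0.67 ± 0.07, adjusted p = 0.00238). Ifrd1 went from 215, 225 and 223 CPM to 140, 138 and 138 CPM (-0.64 ± 0.06, adjusted p = 0.00141). Slc35a4, whose principal transcript lies on the plus strand of chromosome 18 from 36679592 to 36683858 (GRCm38), went from 250, 241 and 257 CPM to 200, 196 and 199 CPM (-0.30 ± 0.06, adjusted p = 0.0214), while its footprints did not change detectably. Every torin 1 library lay below every DMSO library in these 3 genes, and also in Ddit3 and Ppp1r15b, which were not called. For Ibtk the change was 0.01 ± 0.07 (adjusted p = 0.956). In all, 3 of 8 members were called with 13.1% of 9617 genes, and 6 of 8, all lower, with 43.7% of genes when the replicate number was a term, which added Atf5 (adjusted p = 0.00182), Ddit3 (adjusted p = 0.0277) and Ppp1r15b (adjusted p = 0.00261). The call of Slc35a4 was lost without any 1 of control DMSO replicates 1 to 3 or control torin 1 replicate 1 or 2 (adjusted p from 0.0589 to 0.0866). With all replicates as labelled 0 of 8 members were called by edgeR. The log2 changes were then -0.13 ± 0.25 for Atf4, -0.25 ± 0.20 for Ifrd1 and -0.18 ± 0.07 for Slc35a4, and those of Atf5 and Ddit3 turned to 0.57 ± 0.35 each.

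**Figure D4:**
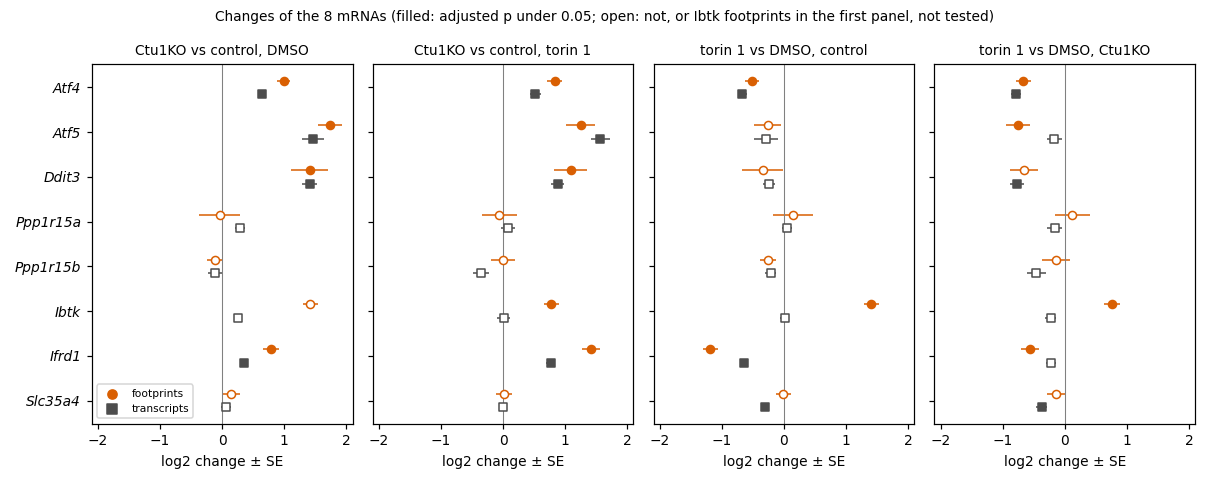
Log2 changes of footprints (circles) and transcripts (squares) in the 4 comparisons, with SE bars; filled symbols passed an adjusted p under 0.05. Ibtk footprints were higher in each panel while its transcript changes lay between -0.23 and 0.25, and Atf4, Atf5, Ddit3 and Ifrd1 had changes of the same sign in both assays.

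In Ctu1KO cells torin 1 also raised Ibtk and lowered Atf4, in a comparison that uses the Ctu1KO DMSO libraries in which Ibtk was first seen. Ibtk footprints went from 23.9 to 31.3 CPM with DMSO to 40.5 to 57.5 CPM with torin 1, without overlap (log2 change 0.76 ± 0.13, 1.70-fold, adjusted p = 0.00134). Atf4 footprints went from 168 to 215 CPM to 111 to 147 CPM, also without overlap (-0.67 ± 0.12, adjusted p = 0.00197). Atf5 (-0.75 ± 0.19, adjusted p = 0.0267) and Ifrd1 (-0.56 ± 0.15, adjusted p = 0.0366) were lower with overlapping groups. Each of these 2 calls held in only 4 of 11 fits with 1 library left out. Atf5 lost it without any 1 of Ctu1KO DMSO replicates 1 to 4 or torin 1 replicates 4 to 6 (adjusted p up to 0.0678), and Ifrd1 without any 1 of DMSO replicates 3 to 5 or torin 1 replicates 2, 3, 4 and 6 (adjusted p up to 0.102). In total 4 of 8 members were called, with 8% of 9855 genes. Scaling by library totals alone also ended the call of Ifrd1 (-0.47 ± 0.16, adjusted p = 0.0864). Among transcripts, Atf4 fell from 379, 344 and 338 CPM to 194, 208 and 189 CPM (-0.78 ± 0.08, adjusted p = 0.00481) and Ddit3 from 18, 18.2 and 22.6 CPM to 11.2, 10.5 and 11.4 CPM (-0.77 ± 0.12, adjusted p = 0.0131), and Slc35a4 fell by 0.37 (SE 0.09, adjusted p = 0.0456). In these 3 genes the groups stood apart, as they did in every other member except Atf5. The called genes made 3 of 8 members, with 8.25% of 9619 genes called. With the replicate number as a term 6 of 8 were called, with 35.1% of genes, the added ones being Ppp1r15b, Ibtk (-0.23 ± 0.08, adjusted p = 0.0397) and Ifrd1, all lower. Ddit3 lost its call without Ctu1KO DMSO replicate 1 or 2 or torin 1 replicate 2 (adjusted p from 0.0505 to 0.0598), and Slc35a4 without any 1 library except torin 1 replicate 3 (adjusted p up to 0.164). With all replicates as labelled 0 of 8 members were called by edgeR (0 of all genes), with -0.51 ± 0.14 for Atf4 and -0.68 ± 0.16 for Ddit3.

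The torin 1 effects of the 2 genotypes were then set against each other in 1 fit. For Ibtk footprints the difference contains the DMSO difference for which Ibtk was chosen, so its value of -0.64 ± 0.16 (Ctu1KO minus control) is a description without a test. The fall of Ifrd1 was smaller in Ctu1KO by 0.63 ± 0.20 and did not pass (adjusted p = 0.337). Of the 7 members other than Ibtk, 0 were called by edgeR or by DESeq2, with 1 at an unadjusted p under 0.05 and 0.639% of 9857 genes called. With the replicate number as a term, 1 of the 7 was called, Ifrd1 (0.61 ± 0.13, adjusted p = 0.0119), among 139 genes (1.41%). That fit holds the Ctu1KO DMSO footprint libraries, where same-numbered libraries did not all deviate together (lowest r of -0.10 against control with DMSO and -0.03 against Ctu1KO with torin 1). A pairing was thus not seen for all of its libraries. For transcripts, 0% of 9616 genes and 0 of 8 members were called by edgeR, with 140 genes and 2 members at an unadjusted p under 0.05, while DESeq2 called 3 genes, Ifrd1 among them. The Ifrd1 transcript fell less in Ctu1KO by 0.43 ± 0.08 (edgeR, adjusted p = 1).

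Footprints relative to transcripts (translational efficiency) were tested by asking whether the footprint change of a gene differed from its transcript change. With torin 1 in control cells the translational efficiency of Ibtk rose by 1.39 ± 0.17 on the log2 scale (2.63-fold, adjusted p = 3.29e-05), where 127 genes were called (1.29% of 9856). In Ctu1KO cells torin 1 raised it by 0.99 ± 0.18 (1.99-fold, adjusted p = 0.00216), where 197 were called (2% of 9855). Each of these comparisons uses a set of the DMSO footprint libraries in which Ibtk was chosen, and the adjusted p-values do not allow for that choice. Ibtk kept these calls in the 6 and 11 fits that left out 1 library, which were run over the groups of 3 and 5 libraries and not over footprint groups of 6. Between Ctu1KO and control the efficiency of Ibtk was higher by 1.17 ± 0.16 in DMSO, given as a description, and by 0.77 ± 0.19 under torin 1, which missed the threshold (adjusted p = 0.0826).

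Of the other 7 members, none passed in translational efficiency with transcripts of replicates 1 to 3 and no replicate term. Ifrd1 passed in 2 of the 4 comparisons with that term, and in 1 with all replicates as labelled. In DMSO, between Ctu1KO and control, edgeR and DESeq2 called 0 of these 7, with 2 at an unadjusted p under 0.05, and 2 of 10397 genes were called (0.0192%). The log2 changes were 0.35 ± 0.14 for Atf4, 0.28 ± 0.30 for Atf5, 0.00 ± 0.47 for Ddit3 and 0.44 ± 0.20 for Ifrd1 (adjusted p = 1 for each). Under torin 1, between Ctu1KO and control, edgeR called 0 of 8 members (2 at an unadjusted p under 0.05) and DESeq2 called 1, Ibtk, with 0.605% of 9913 genes called by edgeR. With the replicate number as a term within each assay, 2 members were called there, Ifrd1 (0.65 ± 0.10, adjusted p = 0.00265) and Ibtk (0.77 ± 0.16, adjusted p = 0.0286), among 1.81% of genes. With the same term, torin 1 in control cells called Ibtk higher and Ifrd1 lower (-0.56 ± 0.11, adjusted p = 0.00994) among 2.87% of genes. When the transcript libraries of replicates 4 to 6 were added as labelled, Ibtk had 0.80 ± 0.15 under torin 1 between the genotypes (adjusted p = 0.00258), 1.32 ± 0.14 with torin 1 in control and 0.90 ± 0.14 with torin 1 in Ctu1KO, and Ifrd1 was also called in the first of these (1.21 ± 0.28, adjusted p = 0.0212). Scaling by library totals alone moved the median of all genes in translational efficiency from 0.03 to 0.15 with torin 1 in control and from 0.04 to 0.19 in Ctu1KO, and called the same counts of members there.

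Part of the genes that ATF4 and CHOP are known to switch on were higher in Ctu1KO than in control. From a list of 34 such targets, 14 were called higher and 0 lower in footprints in DMSO (2.66% of all genes were called), and 20 did not pass, with a median log2 change of 0.43 against 0.00 for all genes. The largest were Chac1, which degrades glutathione (2.48 ± 0.25, adjusted p = 0.00027), Sesn2, a sensor of amino acids (1.23 ± 0.19), Trib3, a pseudokinase induced by stress (1.20 ± 0.17), and Herpud1, a factor of protein degradation at the endoplasmic reticulum (0.99 ± 0.15). In transcripts 13 of the 34 were called higher and 0 lower (5.12% of all genes called, median 0.40), with Chac1 at 2.17 ± 0.28 and Sesn2 at 1.48 ± 0.12. Under torin 1, 8 of 31 tested were higher and 0 lower in footprints (4.83% of all genes called, median 0.27) and 3 higher and 0 lower in transcripts (1.31% of all genes called, median 0.32), led by Trib3 footprints (1.37 ± 0.26). With 1 transcript library left out, 0 to 511 of all genes were called in DMSO and 1 to 406 under torin 1. The transcript counts of targets therefore did not hold in every such fit. In fits with the replicate number, transcripts in DMSO had 27 higher and 0 lower, where 28% of all genes were called. Under torin 1, such fits gave 14 higher and 1 lower in footprints (14.4% of all genes called) and 22 higher and 1 lower in transcripts (32.8%). No target was called in translational efficiency by edgeR in any of the 4 comparisons, and 1 was called lower with torin 1 in control cells when the replicate number was a term (2.87% of all genes called).

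Torin 1 lowered a few of the same targets. In control cells 5 of 31 targets were called lower and 0 higher in footprints (7.24% of all genes called, median -0.13), with Trib3 at -1.43 ± 0.25, Ddit4, an inhibitor of mTOR signalling, at -1.09 ± 0.23 and Mthfd2, a mitochondrial folate enzyme, at -0.52 ± 0.11. In Ctu1KO it was again 5 lower and 0 higher (8% of all genes called, median -0.21), with Trib3 at -1.26 ± 0.17 and Herpud1 at -1.03 ± 0.14. Transcripts had 3 of 31 lower and 0 higher in both genotypes, namely Trib3, Ddit4 and Herpud1, a share near that of all genes called (13.1% in control and 8.25% in Ctu1KO). Fits with the replicate number gave control cells 11 lower and 1 higher in footprints (20.5% of all genes called) and 15 lower and 2 higher in transcripts (43.7%). They gave Ctu1KO 13 lower and 0 higher in transcripts, where 35.1% of all genes were called.

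**Figure D5:**
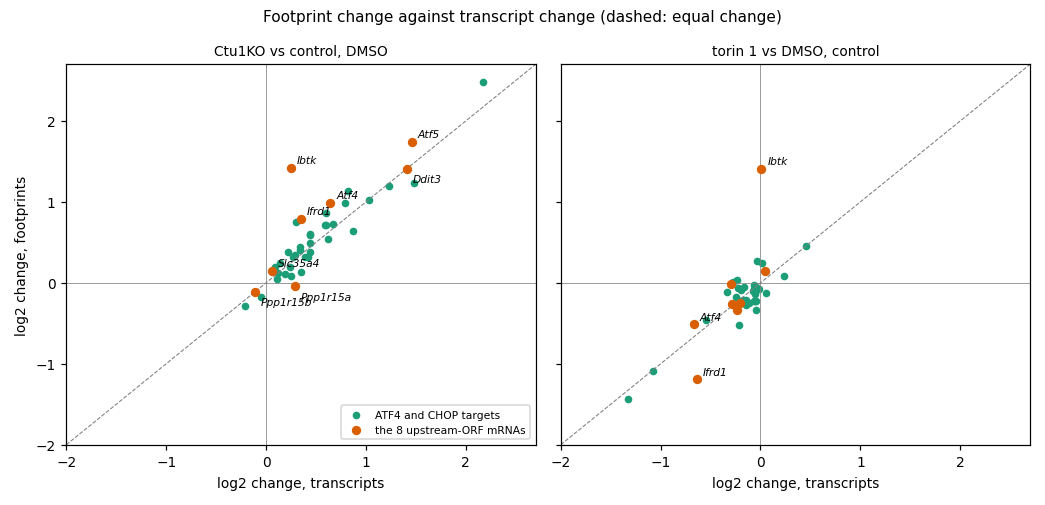
Log2 change of footprints against that of transcripts for the 8 upstream-ORF mRNAs and the ATF4 and CHOP targets, for Ctu1KO against control in DMSO and for torin 1 in control cells. The targets lie along the dashed line of equal change, and Ibtk lies above it in both panels (footprints 1.42 and 1.41, transcripts 0.25 and 0.01).

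The machinery that feeds this response was read from a second list. Of 17 genes for the eIF2 kinases, eIF2, eIF2B and related initiation factors, 0 were called in footprints between Ctu1KO and control with DMSO or with torin 1 (edgeR), where 2.66% and 4.83% of all genes were called. Once the replicate number was a term, 2 were higher and 2 lower under torin 1, where 14.4% of all genes were called. In transcripts, 1 of the 17 was called between the genotypes, a share near that of all genes called in DMSO (5.12%). It was Eif2ak2, which encodes the kinase PKR, higher by 0.43 ± 0.08 in DMSO. The replicate number as a term gave 2 higher and 2 lower there and 1 lower under torin 1, shares below those of all genes called with that term (28% and 32.8%). Torin 1 raised the transcript of Impact, an inhibitor of the kinase GCN2, by 0.56 ± 0.09 in control and 0.66 ± 0.08 in Ctu1KO, and its footprints by 0.64 ± 0.18 in Ctu1KO. It raised the transcript of Eif2a in control (0.38 ± 0.09) and lowered the footprints of Eif2b4 in control (-0.39 ± 0.11) and of Eif2a in Ctu1KO (-0.63 ± 0.13). These calls were 2 of 17 transcripts in control and 1 of 17 in Ctu1KO, where 13.1% and 8.25% of all genes were called. In footprints they were 1 of 17 in control (7.24% of all genes called), and 1 higher and 1 lower in Ctu1KO (8%). These shares lie near those of all genes called. Eif2a was also called in translational efficiency (-0.99 ± 0.21, torin 1 in Ctu1KO), where 2% of all genes were called. With the replicate number as a term 1 gene of the list was called lower in efficiency for torin 1 in control, where 2.87% of all genes were called. For torin 1, the replicate number as a term called 1 higher and 5 lower in footprints (20.5% of all genes called) and 3 higher and 4 lower in transcripts in control, and 3 higher and 3 lower in transcripts in Ctu1KO. These transcript shares lie near those of all genes called with that term (43.7% and 35.1%). Of 10 other mRNAs with a described regulatory upstream frame, 1 was called higher in footprints in Ctu1KO than in control, Azin1, which encodes the antizyme inhibitor (0.40 ± 0.09 in DMSO and 0.51 ± 0.12 under torin 1), where 2.66% and 4.83% of all genes were called. Torin 1 lowered Amd1 footprints in Ctu1KO (-0.58 ± 0.14, 8% of all genes called), and its transcript in control (-0.43 ± 0.08) together with that of Azin1 (-0.30 ± 0.07, 13.1% of all genes called). None of the 10 was called in translational efficiency by edgeR without the replicate number. With it as a term, footprints had 2 higher and 1 lower between the genotypes under torin 1 (14.4% of all genes called) and 4 lower for torin 1 in control (20.5%), and translational efficiency had 1 lower for torin 1 in control (2.87%). Their transcripts then had 1 lower in DMSO (28% of all genes called) and 2 higher and 3 lower under torin 1 (32.8%) between the genotypes. For torin 1 they had 3 higher and 3 lower in control (43.7%) and 2 higher and 4 lower in Ctu1KO (35.1%).

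The members that changed spanned the range of codon content. AAA, the codon read by a tRNA that Ctu1 modifies, made up 3.70% of the Ibtk coding sequence, 4.23% of Ifrd1, 3.15% of Atf4, 2.38% of Ddit3, 2.01% of Ppp1r15b, 0.913% of Ppp1r15a, 0.353% of Atf5 and 0% of Slc35a4, around a median of 2.17% over 10154 genes. Ifrd1 thus lay above 87.2% of genes and Atf5 above only 4.63%, and the footprints of both rose in Ctu1KO. The 3 members whose footprint change in Ctu1KO was not called were below the AAA median. Counting AAA, CAA and GAA together, the codons read by tRNAs with this modification, the order was another one: Ppp1r15a (7.76%) and Ppp1r15b (8.18%) lay above the median of 6.06%, beside Ibtk (8.36%), Ifrd1 (8.46%), Atf4 (6.88%) and Ddit3 (10.1%), and Atf5 (1.77%) and Slc35a4 (1.23%) lay below it. Exons of 7 of the 8 members, all but Atf4, overlap exons of an annotated gene on the other strand, and how strand was counted was not stated, so reads of both strands may enter their counts, which was not tested.

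The genes whose footprints followed Ibtk most closely over the 23 libraries were Myo1e and Eps8 (Pearson r = 0.93 for both) and Dnajb9 (r = 0.92), among 8856 genes on the log2(CPM + 1) scale. Those nearest to Atf4 were the seryl-tRNA synthetase gene Sars (r = 0.93), Atf5 (r = 0.92) and the asparaginyl-tRNA synthetase gene Nars (r = 0.90). These libraries share groups, preparation and depth, so the values are a description of likeness over libraries and were given no p-value.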

How the data were processed

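The files hold raw gene counts. For ribosome footprints, the authors removed adapters (cutadapt 3.4), extracted molecular identifiers (UMI-tools 1.1.1), removed rRNA reads and counted genes with STAR 2.5.3a before the counts were deposited. Transcript counts came from paired-end poly(A) libraries aligned with STAR. The labels name mm10, while the methods name a human build for footprints. Entries with at least 100 footprint counts in a library are listed, and all transcript counts were even.

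CPM were computed over 9857 shared symbols. A gene was tested if its counts averaged 10 or more, with edgeR 4.0.16 (R 4.3.3, TMM, quasi-likelihood, Benjamini-Hochberg over all genes), and DESeq2 1.42.0 was an alternative. The tests were checked on simulated data. Members, lists and the use of transcript replicates 1 to 3 were chosen with earlier results of these data known. Named genes were the 8 members, Ctu1, up to 4 called genes per list by size of change and the 3 genes most like Ibtk and Atf4.

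Same-numbered libraries deviated together (every r over 0.1) in all 4 transcript comparisons (r from 0.48 to 0.84) and in footprints for Ctu1KO against control under torin 1 (0.36 to 0.61) and torin 1 in control (0.46 to 0.65), so the replicate number was treated as a pairing there. It did not in the other footprint comparisons.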

Additional observations from a re-analysis of the deposited data

Results flagged for a closer look

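Among 32 sets of footprint values (8 mRNAs in 4 groups), 3 held a library far from the others by Dixon's test, and chance flags about 1 in 20 such sets. All 3 were in control with DMSO and on the high side. Ppp1r15a had 10.3 CPM in replicate 4, where the next value was 5.5. Slc35a4 had 87.7 CPM in the same replicate, next to 74.2. Ppp1r15b had 35.5 CPM in replicate 2, next to 28.6. None of these 3 genes was called in any footprint comparison. What set these libraries apart was not tested.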

How the results depend on the processing

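Over 1448 recomputed values of the 8 members, 1287 stayed on their side of the threshold and, if not called, moved by less than their SE, while 88 lost a call, 26 gained one and 46 moved further. A change of sign occurred in 57, of which 56 were values that had not been called, among them the Atf5 and Ddit3 transcripts for torin 1 in control. The called one was the Ddit3 transcript in Ctu1KO against control under torin 1, at -0.07 with all replicates as labelled. The counts below are genes called by edgeR, and members where named.

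DESeq2 called 700, 842 and 109 genes in footprints for Ctu1KO against control in DMSO, the same under torin 1 and the difference of the torin 1 effects. In transcripts it called 1530 and 1092 between the genotypes in DMSO and under torin 1, 1963 for torin 1 in control, 1609 (5 members) for torin 1 in Ctu1KO and 3 (1 member) for the difference. In translational efficiency it called 5 and 111 (1 member) between the genotypes and 297 for torin 1 in Ctu1KO.

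The replicate block, which treats same-numbered libraries as pairs, gave 1425 genes in footprints between the genotypes under torin 1, 2019 for torin 1 in control and 139 (1 of 7 members) for the difference. For the difference, a pairing was not seen for the Ctu1KO DMSO libraries. In transcripts the block gave 2831 and 3162 between the genotypes, 4206 (6 members) for torin 1 in control and 3378 (6 members) for torin 1 in Ctu1KO. In translational efficiency it gave 179 (2 members) between the genotypes under torin 1 and 283 (2 members) for torin 1 in control. It changed no member call that is not given in the report.

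With replicates 1 and 2 only, footprints had 0 genes (0 members) between the genotypes in DMSO and 0 (0 members) under torin 1, with 1067 and 846 genes at an unadjusted p under 0.05, then 134 and 144 (0 members) for torin 1 in control and in Ctu1KO, and 1 for the difference. Transcripts then had 1547 and 12 (1 member) between the genotypes. With replicates 3 to 6 only, footprints had 184 between the genotypes in DMSO. With all replicates as labelled, transcripts had 2677 in DMSO and 0 (0 members) under torin 1 between the genotypes, 0 members for torin 1 in control and 0 (0 members) for torin 1 in Ctu1KO. Translational efficiency had 0 and 11 between the genotypes with replicates 1 to 3 in both assays, and 5 and 112 (2 members) with all replicates.

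Leaving out 1 library at a time gave 144 to 285 genes in footprints between the genotypes in DMSO and 2 to 4 members for torin 1 in Ctu1KO. In transcripts it gave 0 to 511 genes (0 to 4 members) between the genotypes in DMSO, 1 to 406 (0 to 4 members) under torin 1, 412 to 1233 for torin 1 in control and 123 to 1123 (1 to 3 members) for torin 1 in Ctu1KO. In translational efficiency it gave 0 to 2 and 25 to 51 between the genotypes. Ddit3 and Ppp1r15a had the fewest footprint counts per library, 17 to 442 and 16 to 232, and whether depth limited their tests was not tested.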
